A study of Homo sapiens with 6 samples.

Results

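GPNMB is a membrane glycoprotein gene known as a target of the MiT/TFE transcription factors, and its row was among those with the lowest fold changes after STRN3 siRNA in a human gastric cancer line. The genes described here are GPNMB and 55 genes of the lysosome and of autophagy, 56 of the 58233 gene rows deposited, each found on 1 row by its symbol. They were picked because GPNMB was lower, to see whether lysosomal genes followed, so GPNMB's own values are given as a description with no test. The cells were HGC-27, an established line from an undifferentiated gastric cancer, grown in RPMI medium with serum. They were transfected with RNAiMAX and harvested for RNA 72 h later, with 3 libraries per group. The siNC libraries received a negative control siRNA and the siSTRN3 libraries a mixture of siRNAs against STRN3, which encodes striatin-3, a subunit of a protein phosphatase complex. Nothing in the labels states that libraries came from separate cultures, so every p-value below measures the spread between libraries, which may be technical.

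Lysosomes are acidic organelles that break down proteins, lipids and glycans delivered by endocytosis and by autophagy, in which a double membrane closes around cytoplasm and fuses with the lysosome. The V-ATPase, a rotary proton pump, keeps the lumen acidic. MITF, TFEB and TFE3 form the MiT/TFE family, which binds short E-box motifs, called CLEAR elements when they lie near lysosomal genes, and raises transcription of hydrolases, pump subunits and autophagy genes when nutrient signalling through mTORC1 is low. The Rag GTPases and folliculin at the lysosome surface control whether TFEB and TFE3 stay in the cytoplasm.

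Values were deposited as TPM, the share of a library's transcripts after correction for gene length. This unit does not retain read numbers, and how deeply each library was sequenced is unknown. STRN3 itself was no lower after its siRNA than in the controls, with 3.51, 5.30 and 3.85 TPM in siNC and 4.76, 5 and 5.56 TPM in siSTRN3, and each direction below is that of the libraries so labelled. Protein-coding rows held 77.6% ± 0.72 (SD, n = 3) of TPM in siNC and 52.2% ± 0.64 (n = 3) in siSTRN3, and the median tested row was 0.637 times as high in siSTRN3 as in siNC. The 6 libraries were therefore each scaled by a single factor to a common median, taken over the 13004 rows that reached 1 TPM in 3 or more libraries. Values on this scale are called rescaled TPM, and fold changes are differences of log2(rescaled TPM + 1), siSTRN3 minus siNC, relative to the median gene, which understate the change of low rows. A row was called higher or lower where limma's adjusted p (Benjamini-Hochberg, over all 13004 rows) was under 0.05. By this rule STRN3 was called higher in the libraries labelled siSTRN3, 1.71-fold with no overlap between the groups (log2 fold change 0.77, SE 0.128, adjusted p = 0.00894 by limma), while as deposited it was not called (0.24, adjusted p = 0.142). In cell populations like these, fewer cells that express a gene and less RNA per cell cannot be told apart. The epithelial identity of a gastric line was not seen in its markers: 7 of 10 were under 1 TPM in every library, among them EPCAM and CDH1, and the 10 summed to 4.54 to 6.27 TPM in siNC and 3.37 to 8.87 TPM in siSTRN3. Of 10 mesenchymal and fibroblast markers 9 were tested, with VIM the highest at up to 3058 TPM, and the 10 summed to 3391 to 3470 TPM in siNC and 1963 to 2008 TPM in siSTRN3. Relative to the median gene VIM (-0.14), COL1A2 (-0.31), DCN (-0.46) and LUM (-0.25) were called lower and COL1A1 (0.44, and -0.21 as deposited) higher, sizes within or near the range of the members' calls, and their part in those calls was not tested.

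GPNMB lies on the plus strand of chromosome 7 (23235967 to 23275108, GENCODE release 29, GRCh38). As deposited it was at 50.8, 50.6 and 50.8 TPM in the siNC libraries and at 12.7, 13.4 and 12.6 TPM in those labelled siSTRN3. After rescaling the values were 40.6, 39.9 and 40.9 in siNC (40.5 ± 0.513, SD, n = 3) and 15.9, 17.0 and 15.7 in siSTRN3 (16.2 ± 0.732, n = 3). The 3 siSTRN3 libraries lay well below the 3 siNC libraries on both scales, and within each group the libraries were close to each other. The log2 fold change of GPNMB was -1.27 (SE 0.0457) relative to the median gene, 2.42-fold lower, and -1.90 as deposited. It ranked 30th from the lowest of 13004 fold changes, and the next member, SMPD1, ranked 229th. GPNMB's fall chose the list, which favours this order. In the authors' deposited table GPNMB is 1 of 57 rows marked as changed, and none of the other 53 members tested is. The mark is not set by adjusted p alone, and what else it requires is not given in the sources used here. Of these 53 members, 28 have an adjusted p under 0.05 in that table, beside 31.7% of all tested rows. Leaving out any 1 library kept the fold change of GPNMB between -1.31 and -1.25.

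GPNMB is also high in macrophages, osteoclasts and pigment cells, and markers of the first 2 of these cell types were near 0 here. All 16 macrophage and osteoclast markers were under 1 TPM in every library, 7 of them at 0, and together they summed to 1.02 to 1.72 TPM in siNC and 0.55 to 0.66 TPM in siSTRN3. Of 14 melanocyte markers 3 were tested (DCT, MC1R and PAX3) and none was called, while TYR, TRPM1 and EDNRB were at 0 throughout. MC1R was the highest of them, at a mean of 5.66 TPM in siNC and 3.26 TPM in siSTRN3. The 14 summed to 11.7 to 12.7 TPM in siNC and 6.77 to 7.96 TPM in siSTRN3. Both sums were lower in siSTRN3 as deposited, a scale that includes the shift of the whole library. Relative to the median gene the log2 fold changes were 0.20 for DCT, -0.13 for MC1R and -0.11 for PAX3. The part of these markers in the level of GPNMB was not tested.

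The promoter of GPNMB is shown because GPNMB chose the list and because MITF is known to bind E-boxes. The window runs from 250 bases before to 50 bases after the start that RefSeq gives (GRCh38.p14, plus strand, chr7:23246525-23246824), which lies inside the longer gene span above. Capitals mark CACATG, the reverse complement of CATGTG.
GPNMB: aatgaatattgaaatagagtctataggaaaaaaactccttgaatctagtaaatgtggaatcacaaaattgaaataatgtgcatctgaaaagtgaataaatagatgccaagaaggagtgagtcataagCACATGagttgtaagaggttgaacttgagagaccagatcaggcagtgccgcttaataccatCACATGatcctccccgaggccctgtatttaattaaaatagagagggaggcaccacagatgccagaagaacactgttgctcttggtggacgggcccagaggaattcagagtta
The window holds 2 copies, at -123 to -118 and -62 to -57 from the start, both followed by an A and so both a full TCATGTG when read on the other strand. TCATGTG is the core of the M-box known from pigment-cell genes. The GPNMB window holds no CACGTG, the E-box at the centre of a CLEAR element.

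**Figure D1:**
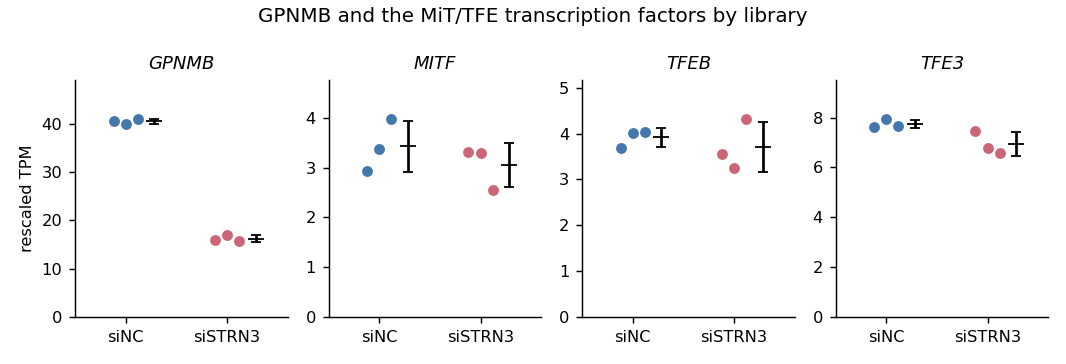
GPNMB and the 3 MiT/TFE factor genes in each library, in rescaled TPM (vertical axes), with siNC and siSTRN3 side by side; points are libraries, and the black marks give the mean with SD (n = 3). GPNMB lies at 39.9 to 40.9 in siNC and 15.7 to 17.0 in siSTRN3, while MITF and TFEB overlap between the groups.

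None of the 3 transcription factor genes was called, beside 21.3% of all rows, and their log2 fold changes lay between -0.14 and -0.07. TFE3 was the highest of them, at 7.62, 7.93 and 7.67 rescaled TPM in siNC and 7.47, 6.80 and 6.56 in siSTRN3. The groups did not overlap, but the fold change of -0.14 (SE 0.068) had an adjusted p of 0.188 by limma. TFEB was at 3.69, 4.02 and 4.04 in siNC and 3.55, 3.25 and 4.31 in siSTRN3, with both the highest and the lowest library in siSTRN3 (-0.07, SE 0.103, adjusted p = 0.673 by limma). MITF, the factor that defines pigment cells, was at 2.94, 3.37 and 3.97 in siNC and 3.31, 3.29 and 2.54 in siSTRN3, again with overlap (-0.13, SE 0.126, adjusted p = 0.507 by limma). Without a rescaling all 3 were called lower, at -0.58 to -0.71 as deposited, beside 80.8% of all rows called lower there. The median log2 fold change of all tested rows on that scale was -0.57. Where the proteins lie in the cell was not measured.

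Of the other 55 genes, 53 were tested. CTSF, a cysteine protease, was listed at 0 in all 6 libraries, and CTSZ, a carboxypeptidase, did not exceed 0.22 TPM. Among the 53, 5 were called higher and 14 lower, or 35.8%, and 34 were not called. Over all 13004 rows 21.3% were called, 11% higher and 10.4% lower, against 9.43% higher and 26.4% lower of the members. The median log2 fold change of the members was -0.11 and that of all rows -0.0063, with 36 members below 0 and 17 above. The groups did not overlap for 29 of the 53 members, 9 higher and 20 lower, against 42.4% of all rows (20.7% higher and 21.8% lower). Called fold changes lay between -0.61 and -0.16 for those lower and between 0.21 and 0.47 for those higher. Each was smaller in size than that of GPNMB, an outcome that choosing the list by GPNMB's fall favours. On the deposited scale, where the shift of the whole library is included, 0 members were called higher, 50 lower and 3 (TPP1, ATP6V1D and WIPI1) not at all, beside 81.8% of all rows called (1.01% higher and 80.8% lower). With any 1 library left out 3 to 5 members were called higher and 7 to 10 lower, 18.9% to 28.3% in all, beside 11.4% to 16.4% of all rows.

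**Figure D2:**
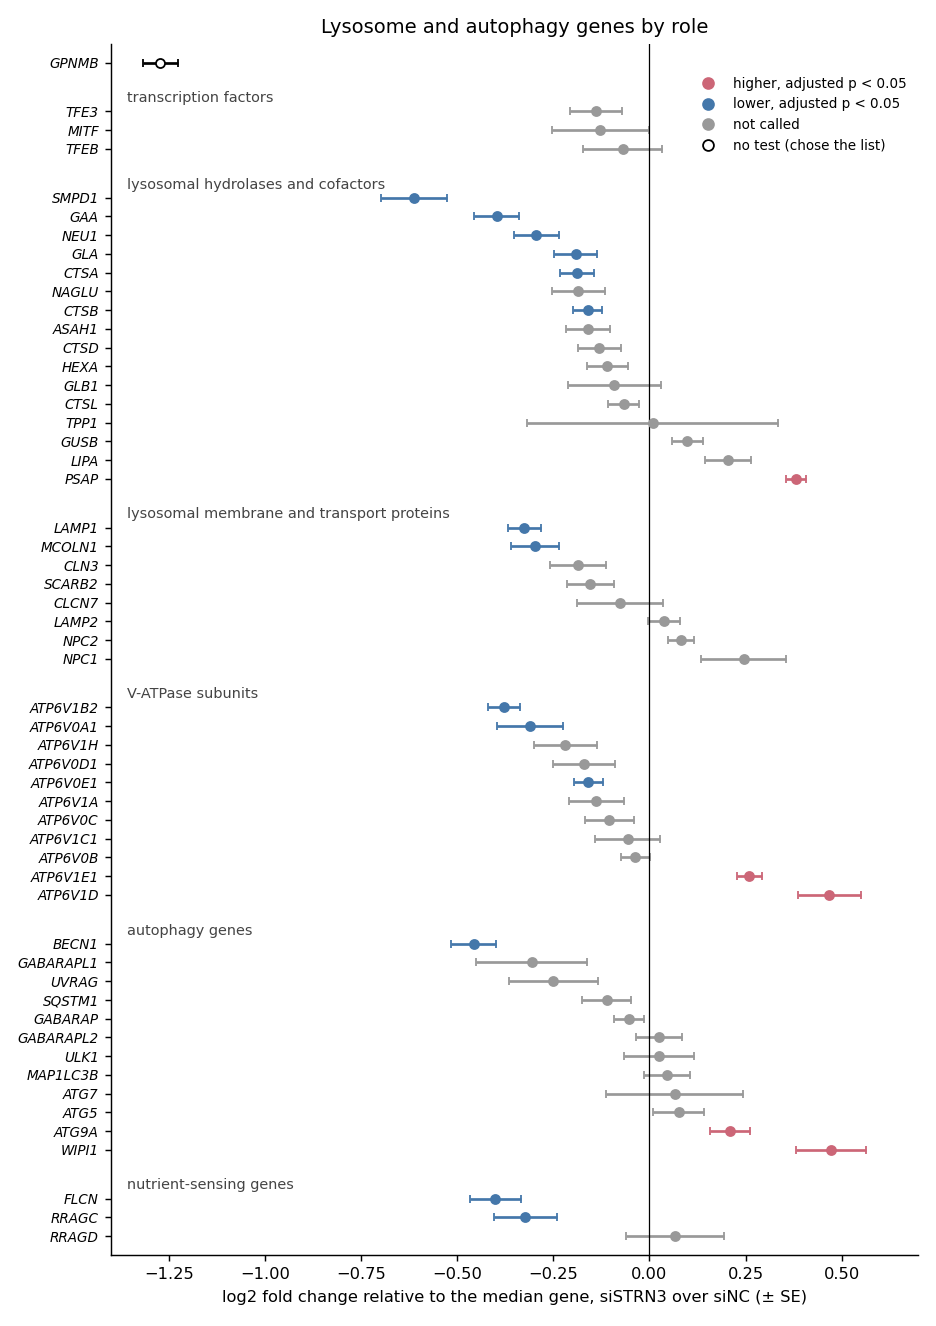
Log2 fold change (siSTRN3 minus siNC, log2(rescaled TPM + 1)) of GPNMB and the 53 other tested members, grouped by role; each point is a gene with its SE, coloured by whether it was called higher, lower or not. GPNMB, whose fall chose the list, lies apart at -1.27 from the others, which range from -0.61 to 0.47. Calls went in both directions among hydrolases, pump subunits and autophagy genes, and as deposited none of the 53 was called higher.

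Of 16 hydrolases and cofactors tested, 6 were called lower and 1 higher (43.8%, beside 21.3% of all rows). Their median log2 fold change was -0.14. SMPD1, the acid sphingomyelinase (chromosome 11, 6390431 to 6394998, plus strand), was at 7.49, 7.15 and 8.21 rescaled TPM in siNC and 4.84, 4.17 and 4.90 in siSTRN3. All 3 siSTRN3 libraries lay below siNC, and SMPD1 fell by 0.61 on the log2 scale (SE 0.0855, adjusted p = 0.00496 by limma), the lowest value of any member after GPNMB. GAA, the acid alpha-glucosidase that degrades glycogen (chromosome 17, 80101556 to 80119879, plus strand), was at 32.2, 30.6 and 35.0 in siNC and 23.9, 25.4 and 24.1 in siSTRN3. Again the groups were apart, and GAA fell by 0.40 (SE 0.0585, adjusted p = 0.00594 by limma). NEU1, the lysosomal sialidase, was at 16.7, 15.7 and 15.9 in siNC and 12.2, 13.7 and 12.8 in siSTRN3. It fell by 0.30 (SE 0.0586, adjusted p = 0.0162 by limma), a call lost without siNC replicate 1 or siNC replicate 3 (highest adjusted p = 0.0622).

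PSAP went the other way. It encodes prosaposin, which is cut into the saposins that help hydrolases reach sphingolipids (chromosome 10, 71816298 to 71851375, minus strand). Its rescaled TPM was 164, 158 and 163 in siNC and 209, 213 and 210 in siSTRN3, so every siSTRN3 library was higher. PSAP rose by 0.38 relative to the median gene (SE 0.0262, adjusted p = 4.2e-04 by limma), the smallest adjusted p of any member, but as deposited its log2 fold change was -0.27. SMPD1 and PSAP, an enzyme of sphingomyelin breakdown and the precursor of sphingolipid cofactors, were thus called in opposite directions relative to the median gene.

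The remaining 3 hydrolase calls were smaller: GLA, the alpha-galactosidase, at -0.19 (adjusted p = 0.0498 by limma), CTSA, the protective protein that NEU1 needs for its activity, at -0.19 (adjusted p = 0.0268), and CTSB, a cysteine protease, at -0.16 (adjusted p = 0.0269). Each of these calls was lost in 5 of the 6 fits without 1 library, with adjusted p up to 0.14 for GLA, 0.0896 for CTSA and 0.081 for CTSB, and each was kept in 1 of them (for GLA without siNC replicate 1, for CTSA without siSTRN3 replicate 1, for CTSB without siSTRN3 replicate 3). CTSA shares 200 exon bases with PLTP on the opposite strand, and since the strand setting of the counting is not given in the sources used here, reads of the overlap cannot be assigned; PLTP was also called lower (-0.19, adjusted p = 0.0135 by limma). The 9 hydrolases not called included CTSD, a major aspartic protease, at -0.13 (SE 0.055, adjusted p = 0.139 by limma). TPP1, a tripeptidyl peptidase, rested on 1 library: its rescaled TPM was 9.23, 9.75 and 9.51 in siNC and 6.64, 17.8 and 7.2 in siSTRN3. With all libraries its log2 fold change was 0.0085 (adjusted p = 0.989 by limma), and without siSTRN3 replicate 2 it was -0.41 (adjusted p = 0.0196).

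Of 8 membrane and transport proteins, 2 were called lower and none higher (25%, beside 21.3% of all rows). Their median log2 fold change was -0.12. LAMP1, a heavily glycosylated protein that coats the inner face of the lysosomal membrane (chromosome 13, 113297241 to 113323672, plus strand), was at 30.3, 31.9 and 31.1 rescaled TPM in siNC and 25.4, 24.5 and 23.9 in siSTRN3. The groups were apart, and LAMP1 fell by 0.33 (SE 0.0432, adjusted p = 0.0042 by limma). Its relative LAMP2, needed for the fusion of autophagosomes with lysosomes, was at 39.6, 42.5 and 39.3 in siNC and 40.9, 42.0 and 41.7 in siSTRN3, with overlap (0.04, SE 0.0425, adjusted p = 0.563 by limma). MCOLN1, the calcium channel mucolipin-1 (chromosome 19, 7522626 to 7534009, plus strand), was at 12, 11.1 and 12.4 in siNC and 9.02, 9.51 and 9.72 in siSTRN3. MCOLN1 fell by 0.30 (SE 0.0627, adjusted p = 0.0196 by limma), a call lost without siNC replicate 1, siNC replicate 3 or siSTRN3 replicate 1 (highest adjusted p = 0.0692). NPC2, a cholesterol carrier and the member with the highest level, was not called (0.08, SE 0.0347, adjusted p = 0.138 by limma).

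LAMP1 and MCOLN1 are known for CLEAR elements, and their promoters are shown beside that of GPNMB because both were called lower and both hold several E-boxes. Windows are as for GPNMB (RefSeq, GRCh38.p14, plus strand), at chr13:113296989-113297288 and chr19:7522374-7522673, and capitals mark CACGTG, which reads the same on both strands.
LAMP1: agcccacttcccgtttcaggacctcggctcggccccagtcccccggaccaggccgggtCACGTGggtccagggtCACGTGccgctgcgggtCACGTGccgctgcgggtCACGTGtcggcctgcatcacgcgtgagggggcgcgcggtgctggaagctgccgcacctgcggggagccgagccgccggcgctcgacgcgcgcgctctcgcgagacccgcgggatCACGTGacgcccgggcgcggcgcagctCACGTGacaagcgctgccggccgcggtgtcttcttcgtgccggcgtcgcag
MCOLN1: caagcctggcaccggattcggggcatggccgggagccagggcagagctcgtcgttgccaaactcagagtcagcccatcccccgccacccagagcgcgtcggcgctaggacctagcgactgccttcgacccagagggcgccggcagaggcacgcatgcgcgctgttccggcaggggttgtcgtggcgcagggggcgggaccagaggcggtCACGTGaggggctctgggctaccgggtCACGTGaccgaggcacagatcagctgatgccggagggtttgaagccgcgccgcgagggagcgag
LAMP1 holds 6 copies of CACGTG and MCOLN1 holds 2, at -41 and -14 from the start, where GPNMB holds none.

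RefSeq windows were found for 43 of the 56 members. CACGTG was present in 12 of the 43 (27.9%) and in 8.78% of all 27305 genes with a window, and the same 12 hold the longer TCACGTG, present in 4.49% of all genes. TCACGTGA was present in 6 of 43 (14%) and in 1.18% of all genes. The full palindrome GTCACGTGAC was present in 2 of 43, GAA and MCOLN1, and in 0.421% of all genes. CATGTG was present in 7 of 43 (16.3%) and in 13.4% of all genes, and TCATGTG in 5 of 43 (11.6%) and in 3.59%. The 27305 genes were not limited to the rows tested here or to a gene type, while the members are protein-coding and most were tested. All motifs were searched on both strands, the longer ones contain the shorter, and many members are on such lists because CLEAR elements are known near them.

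Of the 11 members called lower that have a window, 6 hold CACGTG: CTSA, GAA, LAMP1, MCOLN1, NEU1 and RRAGC. Of these 6, only the calls of GAA and LAMP1 held whichever library was left out. The lower calls of SMPD1, BECN1 and FLCN also held, and their windows lack the motif. Of the 4 called higher with a window none holds it, and of the 25 not called 5 do: ATP6V0B, ATP6V0D1, CLCN7, CLN3 and CTSD. The uncalled ATP6V0B, CLCN7 and CLN3 hold 2 copies each, and their stretches are not shown. The stretches around the motif of the lower members other than LAMP1 and MCOLN1 are set beside those of the 2 uncalled members with a single copy. Each is 30 bases long and in the gene's direction, so that the flanking bases can be compared.
GAA (lower), chr17:80101493-80101522, plus strand: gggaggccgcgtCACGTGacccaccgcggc
GAA (lower), chr17:80101538-80101567, plus strand: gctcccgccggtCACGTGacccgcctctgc
CTSA (lower), chr20:45891281-45891310, plus strand: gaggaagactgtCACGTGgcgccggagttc
CTSA (lower), chr20:45891298-45891327, plus strand: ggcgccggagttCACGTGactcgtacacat
NEU1 (lower), chr6:31862930-31862959, minus strand: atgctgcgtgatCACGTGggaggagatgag
RRAGC (lower), chr1:38859867-38859896, minus strand: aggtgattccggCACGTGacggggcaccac
CTSD (not called), chr11:1763957-1763986, minus strand: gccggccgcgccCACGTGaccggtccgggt
ATP6V0D1 (not called), chr16:67481199-67481228, minus strand: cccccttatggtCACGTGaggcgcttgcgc
Members with and without a call thus share the core. The counts by call are a description of few genes, a match is not shown binding, and a window without a match says only that these letters are not in it.

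Of 11 V-ATPase subunits, 2 were called higher and 3 lower (45.5%, beside 21.3% of all rows). Their median log2 fold change was -0.14. ATP6V1B2, the brain-type B subunit of the catalytic head (chromosome 8, 20197367 to 20226819, plus strand), was at 37.9, 39.8 and 39.1 rescaled TPM in siNC and 29.2, 30.9 and 29.2 in siSTRN3. It fell by 0.38 (SE 0.0419, adjusted p = 0.00236 by limma), with every siSTRN3 library below siNC. ATP6V1E1, a subunit of the peripheral stalk (chromosome 22, 17592136 to 17628818, minus strand), was at 49.4, 50.4 and 51.6 in siNC and 59.6, 61.2 and 61.1 in siSTRN3. It rose by 0.26 relative to the median gene (SE 0.0334, adjusted p = 0.00371 by limma) and was -0.38 as deposited. ATP6V1D, a subunit of the central rotor (chromosome 14, 67294371 to 67360265, minus strand), was at 24.2, 22.0 and 20.3 in siNC and 30.4, 28.9 and 33.8 in siSTRN3. It rose by 0.47 relative to the median gene (SE 0.0828, adjusted p = 0.011 by limma) and was -0.16 as deposited. ATP6V1D shares 269 exon bases with EIF2S1 on the opposite strand, a more abundant gene at a mean of 161 TPM that was called lower (-0.31, adjusted p = 0.00855 by limma).

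The other pump calls were weaker. ATP6V0E1, a small subunit of the membrane sector, was at 74.7, 76.3 and 80.6 rescaled TPM in siNC and 69.5, 69.8 and 67.8 in siSTRN3. The groups were apart (-0.16, SE 0.0383, adjusted p = 0.0292 by limma), but the call was lost whichever library was left out, with adjusted p of 0.051 to 0.0773. ATP6V0A1, a large membrane subunit, was lower at -0.31 (SE 0.0855, adjusted p = 0.0446 by limma), a call kept without siSTRN3 replicate 2 and lost in the other 5 fits without 1 library (highest adjusted p = 0.119). Genes of the head, stalk and rotor of 1 complex were thus called in both directions, and 6 subunits were not called.

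**Figure D3:**
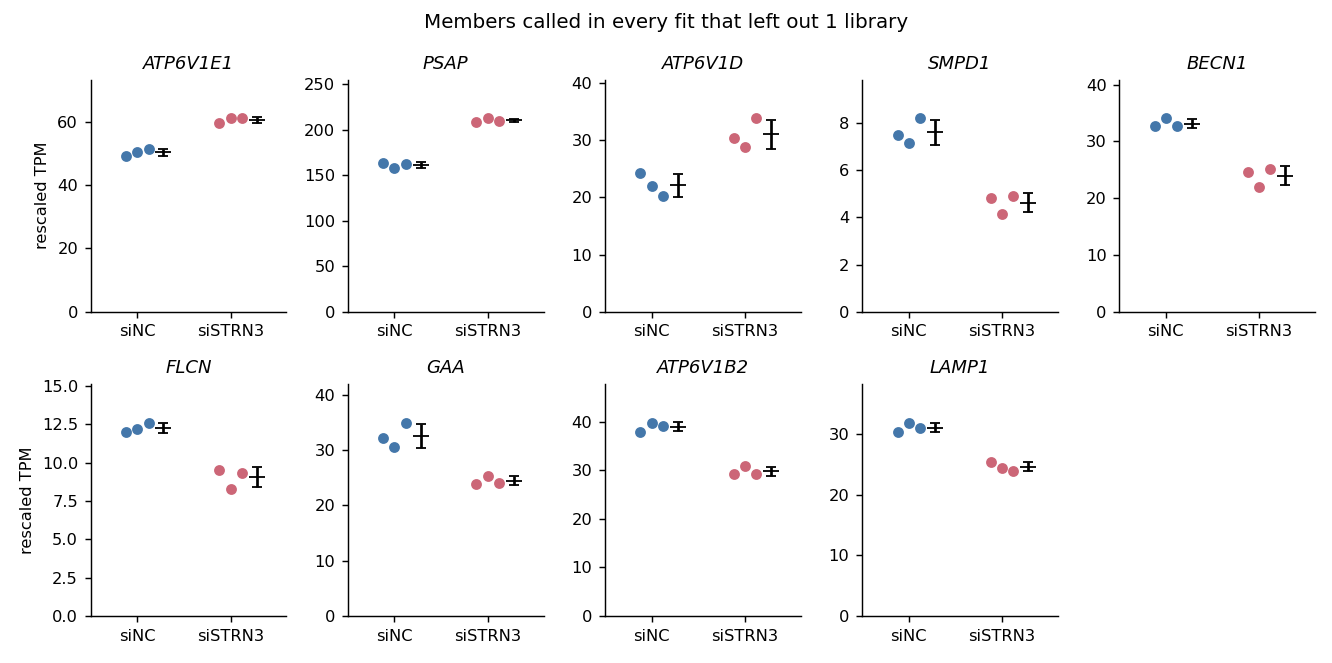
Rescaled TPM of the 9 members whose calls held whichever library was left out and in every other alternative except the deposited scale; points are libraries, the black marks give the mean with SD (n = 3), and each panel has its own axis. SMPD1, GAA, LAMP1, ATP6V1B2, BECN1 and FLCN are lower and PSAP, ATP6V1D and ATP6V1E1 higher in siSTRN3, the latter 3 being -0.27, -0.16 and -0.38 (log2 fold change) as deposited.

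Of 12 autophagy genes, 2 rose and 1 fell relative to the median gene (25%, beside 21.3% of all rows). Their median log2 fold change was 0.025, and 0 were called higher as deposited. BECN1, beclin-1 of the lipid kinase complex that starts autophagosomes (chromosome 17, 42810134 to 42833350, minus strand), was at 32.7, 34.0 and 32.7 rescaled TPM in siNC and 24.5, 22.0 and 25.2 in siSTRN3. The groups were apart, and BECN1 fell by 0.46 (SE 0.0581, adjusted p = 0.00365 by limma). It shares 300 exon bases with PSME3 on the opposite strand, at a mean of 111 TPM and not called (0.02, adjusted p = 0.735 by limma). WIPI1, which binds the lipid that this kinase makes, was at 3.69, 3.33 and 3.04 in siNC and 4.65, 5.07 and 5.39 in siSTRN3. It rose by 0.47 relative to the median gene (SE 0.0906, adjusted p = 0.0142 by limma), was -0.05 as deposited, and lost the call without siNC replicate 2 or siNC replicate 3 (highest adjusted p = 0.0519). WIPI1 also shares 828 exon bases with ARSG on the opposite strand, which was not called.

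ATG9A, a lipid scramblase of the growing membrane, was at 25.2, 24.5 and 25.8 rescaled TPM in siNC and 30.2, 27.4 and 30.2 in siSTRN3. It was higher at 0.21 (SE 0.052, adjusted p = 0.0321 by limma) and -0.42 as deposited, a call kept without siSTRN3 replicate 2 and lost in the other 5 fits without 1 library (highest adjusted p = 0.103). Genes used to follow autophagy in cells were not called. SQSTM1, the cargo receptor p62, was at 68.5, 65.6 and 72.6 in siNC and 66.7, 66.2 and 58.4 in siSTRN3 (-0.11, SE 0.0634, adjusted p = 0.252 by limma). On the opposite strand SQSTM1 shares 1582 exon bases with MRNIP, not called, and 105 with MGAT4B, called higher (0.41, adjusted p = 0.00424 by limma). MAP1LC3B, one of the proteins joined to autophagosome lipid, was at 11.7, 12.6 and 12.9 in siNC and 12.4, 13.4 and 12.6 in siSTRN3 (0.05, SE 0.0594, adjusted p = 0.617 by limma). Its relative GABARAP had a log2 fold change of -0.05 (SE 0.0388, adjusted p = 0.361 by limma), and ULK1, the starting kinase, 0.025 (SE 0.0906, adjusted p = 0.865 by limma). For SQSTM1, MAP1LC3B, GABARAP and ULK1 the groups overlapped.

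Both calls among the 3 nutrient-sensing genes were lower (66.7% called, beside 21.3% of all rows). FLCN, folliculin, which activates the Rag proteins that hold TFEB and TFE3 at the lysosome (chromosome 17, 17212212 to 17237188, minus strand), was at 12, 12.2 and 12.6 rescaled TPM in siNC and 9.55, 8.31 and 9.31 in siSTRN3. It fell by 0.40 (SE 0.0666, adjusted p = 0.00894 by limma), with no overlap between the groups. RRAGC, a Rag that FLCN acts on, was at 8.08, 8.13 and 6.97 in siNC and 6.30, 5.63 and 5.97 in siSTRN3. RRAGC was lower at -0.32 (SE 0.0813, adjusted p = 0.0337 by limma), kept without siNC replicate 3 and lost in the other 5 fits without 1 library (highest adjusted p = 0.111). RRAGC shares 1183 exon bases with an overlapping row on the same strand, AL139260.2, at a mean of 5.85 TPM (-2.31, SE 0.67, adjusted p = 0.0523 by limma). FLCN likewise shares 1161 with AC055811.2, at a mean of 2.46 TPM and not called. RRAGD, a paralogue of RRAGC, was not called (0.07, SE 0.128, adjusted p = 0.749 by limma).

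Of the 19 calls, 9 held in all 6 fits without 1 library and in every other alternative except the deposited scale, 6 lower and 3 higher. They are spread over hydrolases, membrane proteins, the pump, autophagy and nutrient sensing, and none is a transcription factor. How many of the calls over all rows held in the same fits was not counted, so these 9 have no background. With all libraries kept, the calls of GLA, ATP6V0A1, ATP6V0E1, ATG9A and RRAGC were also lost without a filter on low values (adjusted p of 0.0551 to 0.0975 by limma), and those of CTSA, CTSB, GLA, ATP6V0A1, ATP6V0E1 and ATG9A without the mean-variance trend (0.0509 to 0.0806). GLA was also lost with a pseudocount of 0.1 (adjusted p = 0.0508 by limma) and ATG9A with TPM over protein-coding rows (adjusted p = 0.0703). Of the 53 members, 28 have an adjusted p under 0.05 in the authors' deposited table, beside 31.7% of all tested rows. Of these, 17 are among the 19 called here (89.5% of the calls here and 60.7% of those of the authors' deposited table), 13 lower and 4 higher; the 2 without are CTSB and ATG9A.

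**Figure D4:**
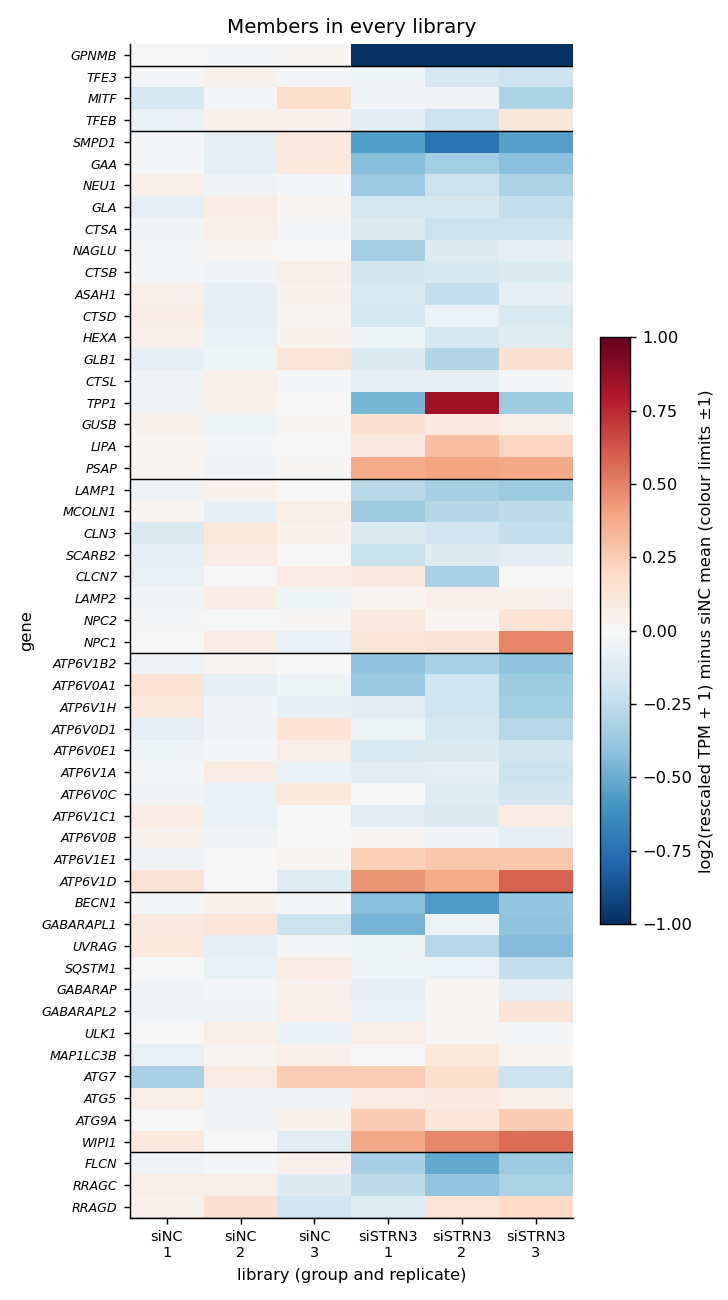
Each member (rows, by role) in each of the 6 libraries (columns), as log2(rescaled TPM + 1) minus the mean of the siNC libraries, with blue below and red above that mean. GPNMB is blue in all 3 siSTRN3 libraries, most other members are pale, and TPP1 stands out in siSTRN3 replicate 2.

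TPM is length-corrected, so levels can be set side by side. As deposited, the highest members in siNC were NPC2 at 273 TPM ± 3.67 (SD, n = 3), PSAP at 202 ± 2.09, GABARAP at 154 ± 3.24, ATP6V0C at 111 ± 6.53, ATP6V0B at 101 ± 1.94, ATP6V0E1 at 96.7 ± 3.36 and SQSTM1 at 86.3 ± 3.53. These 7 stood in the same order in both groups, and the neighbours closest in mean were ATP6V0B and ATP6V0E1 in siNC and ATP6V0C and ATP6V0B in siSTRN3. ATP6V0C and ATP6V0B, which form the proton-carrying ring, and ATP6V0E1 were the highest of the 11 pump subunits among the members; ATP6V1F, which is not a member, was at 119.9 TPM in siNC. ULK1 was the lowest tested member. Rescaled, the members without GPNMB summed to 1756 ± 27.4 TPM (SD, n = 3) in siNC and 1735 ± 5.29 in siSTRN3, a difference smaller than the spread of siNC. This sum leans on the highest members: mean rescaled TPM went from 161.6 to 210.6 for PSAP and from 217.9 to 230.9 for NPC2. Of the 53 members tested, 36 had log2 fold changes below 0 and 17 above. The members' share of protein-coding TPM, a comparison that leaves other RNA classes out, was 0.287% ± 0.00225 in siNC and 0.274% ± 0.00384 in siSTRN3. By library this share was 0.2851% to 0.2896% in siNC and 0.2718% to 0.2786% in siSTRN3, with no overlap.

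**Figure D5:**
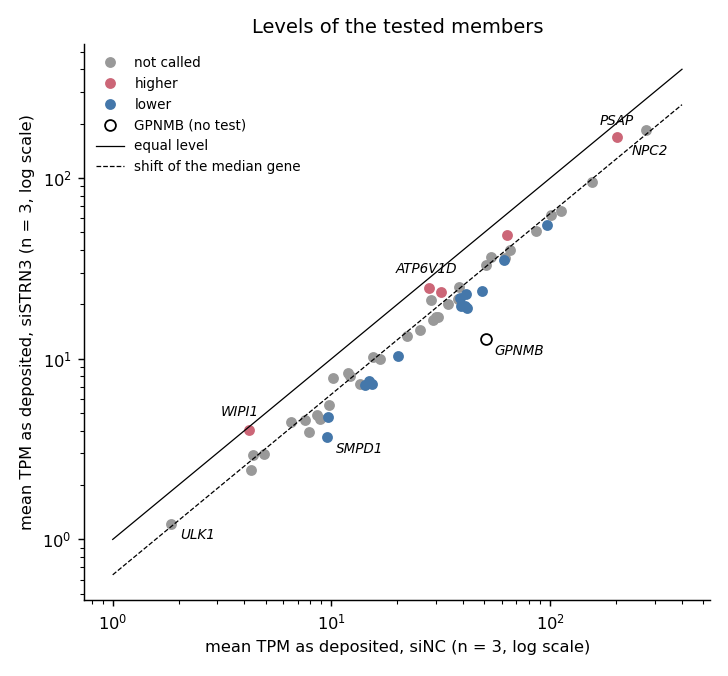
Mean TPM as deposited of each tested member in siNC (horizontal, log axis) and siSTRN3 (vertical, log axis), n = 3 each, coloured by its call relative to the median gene; the solid line marks equal levels and the dashed line the shift of the median row (0.637 times). No member lies clearly above the solid line, most lie near the dashed one, and GPNMB, whose fall chose the list, lies farthest below it.

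Genes of the same pathways that are not members were also called in both directions. Of 64 other lysosomal genes tested, 5 were higher and 10 lower (median log2 fold change -0.11). EPDR1, a lysosomal lipid-binding protein, fell by 0.70 relative to the median gene (adjusted p = 0.00106 by limma), PPT1, a palmitoyl-protein thioesterase, by 0.34 (adjusted p = 0.00541) and PLD3, a lysosomal exonuclease, by 0.35 (adjusted p = 0.00725). EPDR1 was at 14.7, 14.4 and 14.0 rescaled TPM in siNC and 9.07, 8.14 and 8.26 in siSTRN3, and the groups were far apart. PPT1 shares 1189 exon bases with CAP1 on the opposite strand, also called lower (-0.15, adjusted p = 0.0291 by limma). Of 8 other V-ATPase genes only ATP6V1F, another subunit of the rotor, was called, higher at 0.34 relative to the median gene (adjusted p = 0.00137 by limma) and -0.30 as deposited.

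Of 47 other autophagy genes, 1 was higher and 9 lower (median -0.10). RAB7A, the GTPase of late endosomes that brings them to fusion, was at 38.2, 39.6 and 41.3 rescaled TPM in siNC and 58.0, 61.6 and 61.3 in siSTRN3. It rose by 0.59 relative to the median gene (adjusted p = 5.8e-04 by limma) and was -0.05 as deposited. In the lower direction were NBR1, a cargo receptor (-0.36, adjusted p = 0.00681 by limma), VPS11, a core subunit of the tethering complex at the lysosome (-0.40, adjusted p = 0.00741), and STX17, the autophagosomal fusion protein (-0.39, adjusted p = 0.0102). Of 26 other nutrient-sensing genes, 4 were higher and 2 lower (median -0.04). SESN2, a leucine sensor that restrains mTORC1, fell by 0.46 (adjusted p = 0.0102 by limma). TSC1, part of the complex that restrains Rheb, was lower at -0.32 (adjusted p = 0.0229 by limma). That call was kept only without siSTRN3 replicate 3 among the fits without 1 library (highest adjusted p = 0.0785 by limma). TSC1 shares 349 exon bases with GFI1B on the opposite strand, at a mean of 120 TPM and not called. LAMTOR4, of the Ragulator scaffold, was higher at 0.18 and -0.47 as deposited (adjusted p = 0.015 by limma). The call was lost without siNC replicate 1, siNC replicate 2 or the mean-variance trend. LAMTOR4 shares 356 exon bases with C7orf43 on the opposite strand, which was not called. DEPTOR, an mTOR inhibitor, was higher at 0.31 and -0.28 as deposited (adjusted p = 0.021 by limma), lost without siNC replicate 1, siNC replicate 3 or siSTRN3 replicate 1. Called shares of these lists were 23.4% for lysosomal, 12.5% for V-ATPase, 21.3% for autophagy and 23.1% for nutrient-sensing genes, beside 21.3% of all rows.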

How the data were processed

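RNA of 3 siNC and 3 siSTRN3 libraries was sequenced, with groups and replicate numbers taken from the sample titles. The authors deposited TPM per gene row, per the file headers (the file name gives FPKM). HISAT2, Cufflinks, RSEM and the build GRCh38.p10 are listed without roles in the submitters' processing notes; depth, strand setting and the handling of multiply mapped reads are not stated there. The authors' deposited table includes adjusted p-values. Its file name gives deseq2, and no source used here gives further details of the method.

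Rows were rescaled to a common median and tested with limma-trend (limma 3.58.1, R 4.3.3, data.table at version 1.17.8) on log2(TPM + 1), without a block, Benjamini-Hochberg adjusted over 13004 rows at a threshold of 0.05. A minimum of 1 TPM in at least 3 libraries was required. TPM has a fixed total, so more of one RNA class means lower values everywhere else. Overlaps and transcript types come from GENCODE release 29 by symbol. Overlaps are given for some of the named genes only, and others have them too. Near-identical copies were searched with BLAST+ 2.17.0 (95% identity over 50% of the length) and were found for CTSD (AC068580.4, mean 1.11 TPM) and ATP6V0C (AC093525.2, mean 0.015 TPM) among the members. Promoters come from RefSeq, GRCh38.p14. Figures and joins used Python 3.11.15 with matplotlib 3.10.9, numpy 2.4.6 and pandas 2.3.3.

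Members and lists were chosen with earlier results of these data known. Named in full are GPNMB, the 3 MiT/TFE genes and, per role, up to 4 called members by adjusted p (or the 2 highest in TPM where none was called); per other list, up to 4 called genes, of which 1 is not reported here. Further uncalled members named by value (CTSD, TPP1, LAMP2, NPC2, SQSTM1, MAP1LC3B, GABARAP and ULK1) were chosen after their values were seen. Alternatives were the deposited scale, TPM over protein-coding rows, a pseudocount of 0.1, no filter, at least 5 TPM, no mean-variance trend, the replicate number as a block, and each library left out.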

Additional observations from a re-analysis of the deposited data

How the results depend on the processing

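On the deposited scale 131 of all rows were called higher and 10512 lower, and of the members 0 and 50. By role, 3 transcription factors were then lower, 15 hydrolases lower (0 higher), 8 membrane proteins lower, 10 V-ATPase subunits lower (0 higher) and 11 autophagy genes lower (0 higher). Of other lysosomal genes 1 was higher and 56 lower, of other V-ATPase genes 0 and 7, of other autophagy genes 0 and 39, and of other nutrient-sensing genes 0 and 23. These log2 fold changes turned negative there: RAB7A -0.047, WIPI1 -0.051, ATP6V1D -0.16, PSAP -0.27, DEPTOR -0.28, ATP6V1F -0.30, NPC1 -0.34, ULK1 -0.37, ATP6V1E1 -0.38, ATG9A -0.42, LIPA -0.42, RRAGD -0.44, LAMTOR4 -0.47, ATG5 -0.47, ATG7 -0.52, GUSB -0.54, MAP1LC3B -0.56, NPC2 -0.57, TPP1 -0.58, LAMP2 -0.60 and GABARAPL2 -0.61. By construction this scale holds the common shift.

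With TPM over protein-coding rows 1 autophagy gene was higher, 4 membrane proteins, 19 other lysosomal, 16 other autophagy and 5 other nutrient-sensing genes were lower, and ULK1 (-0.0063), LAMP2 (-0.012), GABARAPL2 (-0.025), TPP1 (-0.044) and MAP1LC3B (-0.0009) turned negative. At 5 TPM or more 1 autophagy gene, 2 hydrolases and 3 other lysosomal genes were higher and 4 other nutrient-sensing genes lower. Without a filter 1 autophagy gene, 3 other lysosomal and 2 other nutrient-sensing genes were higher, and 1 V-ATPase subunit, 1 nutrient-sensing gene and 3 other autophagy genes lower. Without the trend 9 members were lower, 3 of them hydrolases and 1 a V-ATPase subunit, and 1 autophagy gene and 2 other nutrient-sensing genes were higher. A pseudocount of 0.1 moved no count by over 1.5 times and turned TPP1 to -0.002. Shares of all rows differed by setting too. With TPM over protein-coding rows 9.69% were called higher and 17.8% lower, and at 5 TPM or more 14% and 15.7%. Without a filter the shares were 3.49% and 3.42%, and without the trend 9.84% and 9.17%. The main fit gave 11% and 10.4%.

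With the replicate number as a block 910 rows were higher and 835 lower, and 3 and 6 members: 2 hydrolases, 1 membrane protein, 1 V-ATPase subunit and 1 nutrient-sensing gene among those lower, 0 autophagy genes higher. The block lost the calls of CTSA, CTSB, GLA, NEU1, MCOLN1, ATP6V0A1, ATP6V0E1, WIPI1, ATG9A and RRAGC (adjusted p of 0.0519 to 0.1 by limma). Of other lysosomal genes 3 were then higher, of other autophagy genes 3 lower, and of other nutrient-sensing genes 1 higher and 1 lower. Libraries with the same number did not deviate together (correlations 0.057, -0.02 and -0.08), and only those numbered 1 correlated best with their own number, so the numbers are not taken as pairs.

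With 1 library left out, rows higher ranged from 786 to 1103 and rows lower from 699 to 1077, members higher from 3 to 5 and lower from 7 to 10. Hydrolases higher ranged from 1 to 2 and lower from 2 to 4, membrane proteins lower from 1 to 2, V-ATPase subunits lower from 1 to 2, autophagy genes higher from 0 to 2 and nutrient-sensing genes lower from 1 to 2. Other lysosomal genes higher ranged from 1 to 4 and lower from 6 to 9, other V-ATPase genes higher from 1 to 2, other autophagy genes higher from 1 to 2 and lower from 3 to 8, and other nutrient-sensing genes higher from 0 to 3 and lower from 1 to 3. These fits have fewer samples. Log2 fold changes that changed sign were those of TPP1 (-0.41 to 0.24), ATG7 (-0.097 to 0.21), ULK1 (-0.0091 to 0.058), RRAGD (-0.029 to 0.16), GLB1 (-0.21 to 0.0092), CLCN7 (-0.16 to 0.047), TFEB (-0.16 to 5e-04) and GABARAPL2 (-0.028 to 0.0695). For the other settings the cause of a changed value was not tested, and depth, which TPM does not keep, limits low rows such as MITF and ULK1 by an unknown amount.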
